A study of Sus scrofa with 24 samples.

Results

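The livers of 24 pig fetuses were separated by the level of a single transcript, ACAA2, which encodes the mitochondrial enzyme of the last step of fatty acid β-oxidation. The 11 livers in which the only ACAA2 probe set reached a log2 level of 8.0 or more were compared with the 13 livers below 8.0, and the readout was every other gene that passed a filter on low levels. The sides were chosen by this measured level alone and are no groups of the study. The study collected liver at 63 days post conception (dpc) from F2 fetuses of a German Landrace and Pietrain cross and hybridized the RNA of each fetus to 1 Affymetrix Snowball array. All 24 fetuses shared the age, the cross and the tissue, and no treatment is labelled. The study chose growth-restricted fetuses and same-sex littermates of appropriate weight as sibling pairs. The paper reports ACAA2 and ACADM beside a panel of features that separates these growth groups. There ACAA2 correlated positively and ACADM negatively with ceramides that were more abundant in growth-restricted fetuses. Whether the ACAA2 sides follow the growth groups was not tested. Arrays are labelled by fetus number only, with no growth group, sex or dam to map, so neither side can be assigned to growth-restricted or normally grown fetuses. Siblings are among the fetuses, so the p-values, which treat the livers as independent, are approximate, and with the dams unmapped the direction of the error is not known.

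In β-oxidation, fatty acids are shortened in the mitochondrion by repeated rounds of dehydrogenation, hydration, a further dehydrogenation and thiolysis, and the acetyl-CoA released feeds the citric acid cycle or the synthesis of ketone bodies. ACAA2 carries out the thiolysis of medium-chain and shorter substrates. The fetal liver relies less on fatty acids than the liver after birth, and at mid-gestation it holds blood-forming cells beside its hepatocytes.

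The deposited values were log2 levels after robust multi-array averaging (RMA), a normalization that gives the arrays alike distributions. A gene was tested when its probe set with the highest mean had a log2 level of at least 6 in 18 or more of the 24 arrays, which left 3378 genes without ACAA2. The array medians over all probe sets lay between 2.81 and 2.89 for livers with ACAA2 at 8.0 or more and between 2.81 and 2.88 for livers below 8.0. The median of the 69 background control probe sets lay between 1.48 and 1.59 on the high side and between 1.48 and 1.62 on the low side, and the 95th percentile of these controls ranged from 6.52 to 6.89 over all arrays, so a level near 6 is within reach of the brightest controls. The highest correlation between a pair of arrays was 0.985. Of 20 listed hepatocyte markers, 18 passed the filter, and their mean level was 11.52 or more in every liver. In whole tissue, fewer cells of a type and less RNA per cell cannot be told apart.

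The log2 level of ACAA2 had a lowest value of 8.16, a median of 8.45 and a highest value of 8.93 in the 11 livers at or above 8.0, against a lowest value of 6.75, a median of 7.40 and a highest value of 7.84 in the 13 livers below 8.0. The sides do not overlap because the level chose them. Fetus 338 had the highest level and fetus 283 the lowest. The 3 livers just inside the limit were those of fetus 311 with 8.16, fetus 384 with 8.18 and fetus 274 with 8.19. The 3 livers just below it were those of fetus 352 with 7.84, fetus 312 with 7.82 and fetus 327 with 7.63.

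**Figure D1:**
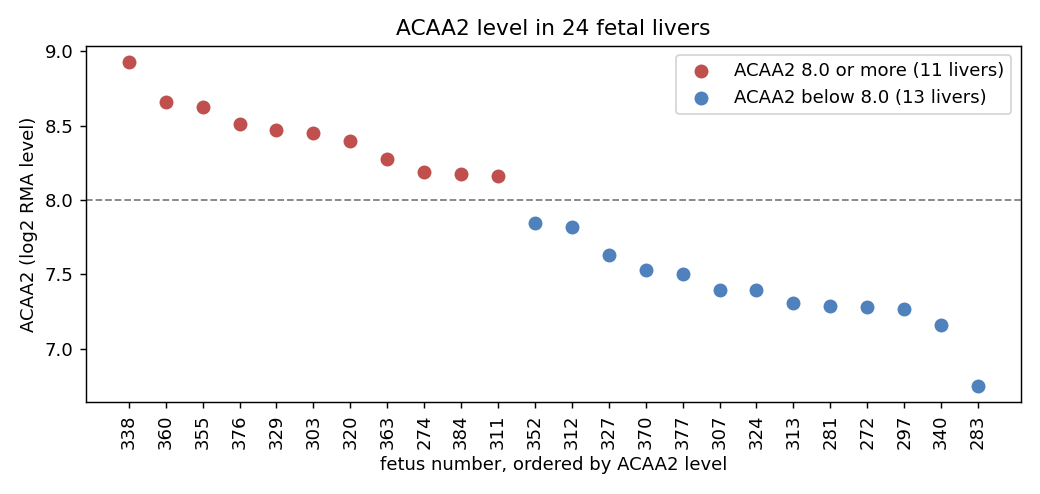
Log2 RMA level of ACAA2 (vertical axis) in each of the 24 fetal livers, ordered from highest to lowest by fetus number (horizontal axis), with the limit of 8.0 as a dashed line. The 11 livers in red lie between 8.16 and 8.93 and the 13 in blue between 6.75 and 7.84.

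Few genes passed the threshold between the sides. With limma and Benjamini-Hochberg adjustment over all 3378 genes, 4 genes (0.118%) had an adjusted p under 0.05, and all of them were lower in livers with high ACAA2: C8B and C8A, which encode chains of complement component C8, LBP, the lipopolysaccharide-binding protein of plasma, and CDH1, the epithelial adhesion molecule E-cadherin. At an adjusted p under 0.1, the level used in the study's methods, 15 genes (0.444%) were called, 9 (0.266%) higher and 6 (0.178%) lower. An unadjusted p under 0.05 was found for 434 genes (12.8%), of which 242 (7.16%) were higher and 192 (5.68%) lower. The median difference over all genes was -0.0002 on the log2 scale, and 49.8% of the genes had a positive and 50.2% a negative difference. The absolute difference was over 0.5 in 23 genes and over 1 in 4 genes. No gene had sides that did not overlap. The third principal component of the tested genes held 9.98% of their variance. Its lowest, median and highest values were -9.19, -3.40 and 5.46 in livers with high ACAA2, against -1.15, 2.40 and 7.71 in the others. The first component had medians of 1.23 and -3.41 and the second of 0.02 and -0.25, in the same order.

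**Figure D2:**
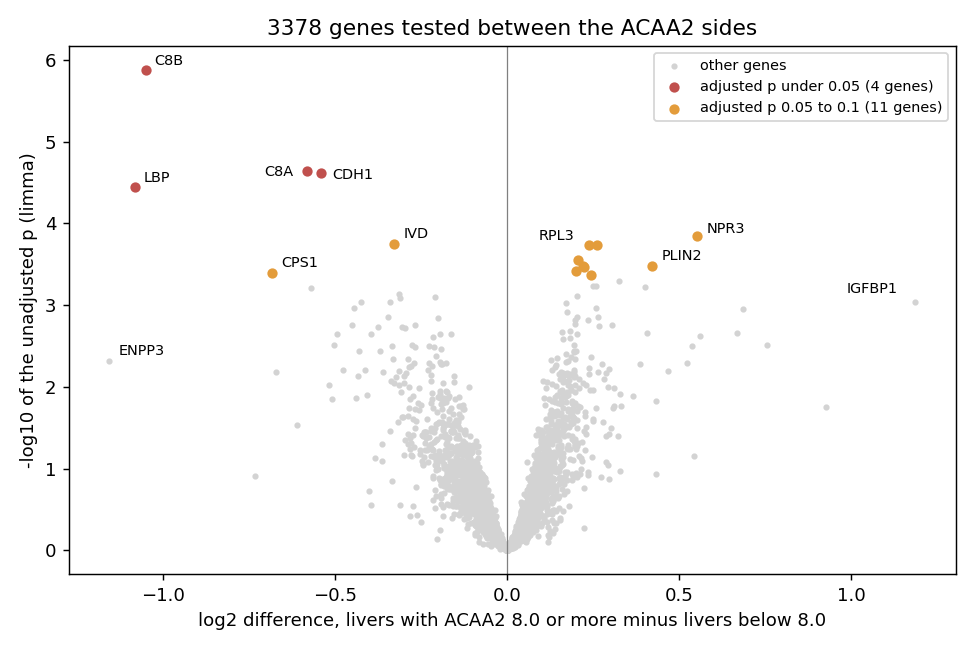
Difference in log2 level between livers with ACAA2 at 8.0 or more and livers below 8.0 (horizontal axis) against -log10 of the unadjusted limma p (vertical axis) for 3378 genes. The 4 genes in red have an adjusted p under 0.05 and lie on the left, and the 11 in orange have an adjusted p between 0.05 and 0.1. IGFBP1, with the largest absolute difference of 1.19, is not among them.

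C8B, the β chain of complement component C8, a part of the pore that complement forms in membranes, had a lowest log2 level of 4.84, a median of 6.04 and a highest level of 6.66 in livers with ACAA2 at 8.0 or more, against 6.20, 7.04 and 7.52 in livers below 8.0. Of the 11 livers with high ACAA2, 9 lay below the lowest of the other side. The difference was -1.05 (SE 0.170, 95% confidence interval -1.40 to -0.70), or 2.07-fold lower, with an adjusted p of 0.00446 in limma. The lowest level belonged to fetus 274, and the lowest of the low-ACAA2 side to fetus 312. A level of 6 was reached by 6 of the 11 livers with high ACAA2 and by all 13 livers below 8.0, and the high-ACAA2 levels were within or under the range of the brightest controls, so the size of the C8B difference is approximate.

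C8A, the α chain of the same component, had a lowest level of 7.84, a median of 8.63 and a highest level of 9.03 in livers with high ACAA2, against 8.64, 9.18 and 9.54 in the others. These levels lay above the range of the brightest controls. The difference was -0.58 (SE 0.113), or 1.5-fold lower, with an adjusted p of 0.0274 in limma, and 6 of the 11 livers with high ACAA2 lay below every liver of the other side. The other C8A probe set gave a difference of -0.52 and followed the one used with a Pearson r of 0.914. C8A and C8B are adjacent genes in the RefSeq annotation of Sscrofa11.1. Fetus 274 was the lowest liver for C8A as for C8B.

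LBP, a plasma protein of the acute phase response that binds bacterial lipopolysaccharide, had a lowest level of 5.93, a median of 6.91 and a highest level of 8.03 in livers with high ACAA2, against 7.07, 7.97 and 8.36 in livers below 8.0. Of the 11 livers with high ACAA2, 7 lay below the whole other side, while fetuses 311 and 320 had levels of 7.95 and 8.03, well inside its range. The difference was -1.08 (SE 0.219), or 2.12-fold lower, with an adjusted p of 0.0302 in limma. The levels of fetuses 360, 338, 274, 329 and 303, between 5.93 and 6.51, lay under the range of the brightest controls, so the size of the LBP difference is approximate. The other LBP probe sets gave differences of -0.91 and -0.98, with r of 0.946 and 0.979 with the one used.

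CDH1 had a lowest level of 7.41, a median of 8.05 and a highest level of 8.50 in livers with high ACAA2, against 8.18, 8.63 and 9.03 in livers below 8.0, and 8 of the 11 lay below the lowest liver of the other side. The difference was -0.54 (SE 0.106), or 1.45-fold lower, with an adjusted p of 0.0274 in limma. E-cadherin joins hepatocytes and bile duct cells to their neighbours. The biliary marker CLDN4 had a difference of -0.10 (adjusted p 0.654 in limma) and was the only 1 of 10 listed biliary markers that passed the filter. For all 4 called genes, fetus 312 had the lowest level among the 13 livers below 8.0, and its ACAA2 level of 7.82 was the second highest of that side.

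**Figure D3:**
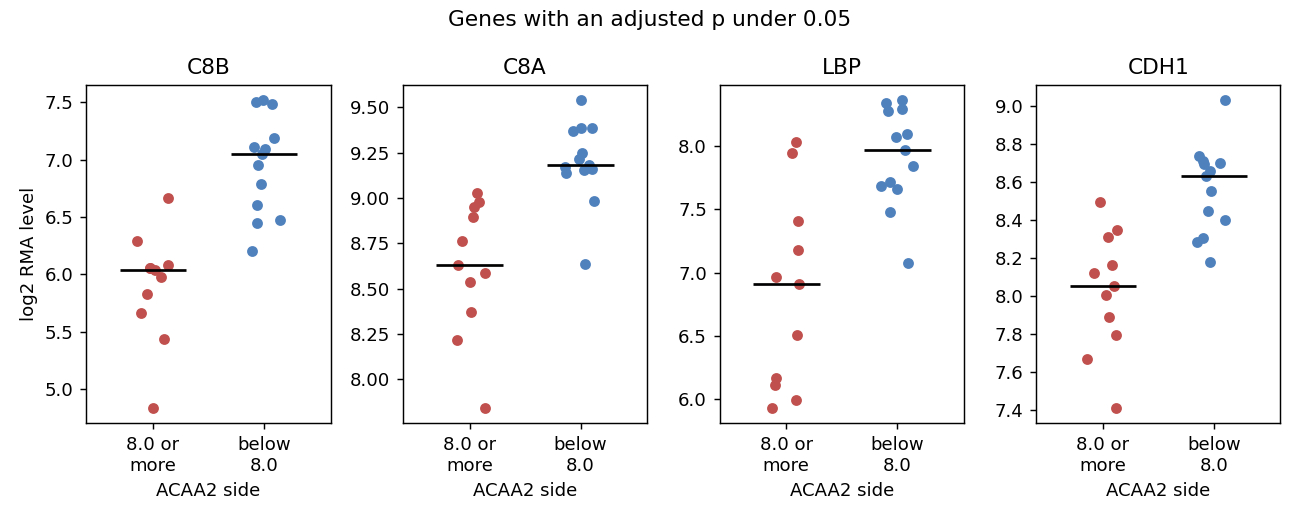
Log2 RMA levels (vertical axes) of the 4 genes with an adjusted p under 0.05, with 11 livers at ACAA2 8.0 or more on the left and 13 livers below 8.0 on the right of each panel. Points are single livers and bars are medians. The medians are lower on the left in each panel, 6.04 against 7.04 for C8B, 8.63 against 9.18 for C8A, 6.91 against 7.97 for LBP and 8.05 against 8.63 for CDH1.

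The calls differed in how far they rested on single livers. C8B was called in all 24 fits that left out 1 liver, with adjusted p between 0.00102 and 0.0147. C8A was called in 13 of them, CDH1 in 14 and LBP in 11, with adjusted p up to 0.0774, 0.0774 and 0.0866. With the mean standardized level of the stellate and mesenchymal markers as a covariate, none of the 4 was called. The differences of C8B, C8A, LBP and CDH1 were then -0.99, -0.46, -0.92 and -0.39 with adjusted p of 0.131, 0.171, 0.171 and 0.188 in limma. The number of called genes was 1 without fetus 297, 324, 327, 329, 340, 355, 360 or 370, 2 without fetus 272, 311, 338 or 352, and 9 without fetus 281, 10 without fetus 363 and 41 without fetus 312. Fetuses 311 and 312, which lie near the limit on either side, were also the farthest out on the first principal component of the filtered genes, and their mean levels of 4 granulocyte markers were 10.4 and 10.4, against 6.98 to 8.43 in the other livers. Without both of them 35 genes were called, 17 higher and 18 lower, including the same 4. In that fit CPS1, IGFBP2, ALB, ACADM and IGFBP1 were among the calls, and 31 of the 35 genes were also called without fetus 312 alone.

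The 11 genes with an adjusted p between 0.05 and 0.1 in limma, named after their values were seen, were 9 with higher and 2 with lower levels in livers with high ACAA2. NPR3, the clearance receptor of natriuretic peptides, had the largest positive difference, 0.55 (SE 0.125, adjusted p 0.0784). Its level had a lowest value of 6.42, a median of 7.06 and a highest value of 7.73 with high ACAA2, against 6.04, 6.40 and 6.94 with low ACAA2, and 6 of 11 livers lay above the whole other side. PLIN2, a coat protein of lipid droplets, differed by 0.42 (adjusted p 0.0949), with 8.02, 8.33 and 8.84 against 7.63, 8.01 and 8.37. MDH1, the cytosolic malate dehydrogenase, and TOMM20, a receptor for protein import into mitochondria, both differed by 0.22 (adjusted p 0.0949 for each). CHMP5, a component of the machinery that sorts membrane proteins for degradation, differed by 0.20 (adjusted p 0.0959), and the remaining 4 were the ribosomal protein genes RPL3, RPL14, RPL35 and RPS18. The 2 genes with lower levels were IVD, the isovaleryl-CoA dehydrogenase of leucine breakdown, with a difference of -0.33 (adjusted p 0.0784), and CPS1, which catalyses the first step of the urea cycle, with -0.68 (adjusted p 0.0959).

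None of the other measured enzymes of mitochondrial β-oxidation was called, against 0.118% over all genes. Of 22 listed genes, 15 passed the filter, and 3 had an unadjusted p under 0.05, all lower in livers with high ACAA2 (5.68% over all genes). The median difference of the 15 was -0.06, against -0.0002 over all genes, and 11 of them were negative. ACADM, the medium-chain acyl-CoA dehydrogenase that begins the cycle for similar chain lengths, had the largest difference, with levels of 6.37, 6.68 and 7.05 (lowest, median and highest) in livers with high ACAA2, against 6.19, 7.23 and 7.51 in livers below 8.0. Its difference was -0.43 (SE 0.114, adjusted p 0.112 in limma). On the low side fetus 312 alone lay at 6.19 and the next liver at 6.80, and without fetus 312 the difference was -0.50 and ACADM was called. ACADSB, the short and branched chain dehydrogenase, differed by -0.19 (adjusted p 0.309), and ETFA, a subunit of the flavoprotein that takes up the electrons of these dehydrogenases, by -0.16 (adjusted p 0.316).

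The remaining members of the list had smaller differences. The trifunctional protein, which holds the hydration and long-chain thiolysis steps, differed by -0.05 in its α subunit HADHA and by 0.08 in its β subunit HADHB. ACADL, the long-chain dehydrogenase, differed by -0.14, ACADS, the short-chain dehydrogenase, by -0.09, ACADVL, the very long-chain dehydrogenase, by 0.09, and ACAD9, a related dehydrogenase with a role in complex I assembly, by 0.04. The reductase DECR1 of unsaturated fatty acids differed by -0.14, the hydratase ECHS1 by -0.06, and the hydroxyacyl-CoA dehydrogenase HADH by -0.06. ETFB and ETFDH, which pass electrons on to the respiratory chain, differed by -0.06 and -0.04, and the carnitine carrier SLC25A20 by 0.01. All of these had adjusted p of 0.454 or more in limma. The carnitine palmitoyltransferases CPT1A, CPT1B and CPT2 and the dehydrogenase ACAD10 did not reach a level of 6 in any liver and were not tested. CPT1A had medians of 4.99 with high ACAA2 and 5.15 with low ACAA2.

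None of the other thiolases was called, against 0.118% over all genes. Of 9 listed thiolases and thiolase-linked enzymes, 7 passed the filter. The peroxisomal thiolase ACAA1 differed by 0.07 (95% confidence interval -0.13 to 0.28), the mitochondrial acetoacetyl-CoA thiolase ACAT1 by -0.03 (-0.18 to 0.11), the cytosolic ACAT2 by 0.16 (-0.03 to 0.34), and SCP2, which has a peroxisomal thiolase domain, by 0.07 (-0.07 to 0.22). OXCT1, which activates ketone bodies for use outside the liver, differed by less than 0.01. BDH1, which interconverts the main ketone bodies, had levels of 6.12, 6.84 and 7.26 with high ACAA2, against 6.43, 7.31 and 7.60 with low ACAA2, a difference of -0.45 (adjusted p 0.122 in limma). Fetus 312 was again the lowest of the low side.

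A list of 9 genes other than ACAA2 held transcripts that were also quantified by PCR. Of these, 8 passed the filter and none was called, against 0.118% over all genes. The PCR values were not analysed here. Beside ACADM, ACADL, ACADSB and FH, the fumarase, with 0.10, these were the lipoamide dehydrogenase DLD with a difference of -0.10, the acyl-CoA synthetase ACSL4 with -0.10, GCLM, a subunit of glutamate-cysteine ligase, with -0.11, and transferrin, TF, with -0.06. All 8 had adjusted p of 0.112 or more in limma, and 7 were negative.

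Negative differences prevailed among enzymes of amino acid breakdown and the urea cycle. Of 31 listed genes, 14 passed. None was called at 0.05 (0.118% over all genes) and 2, CPS1 and IVD, were called at 0.1 (0.444%). With an unadjusted p under 0.05 in limma, 6 had a negative difference (5.68% over all genes) and 1 a positive one (7.16%). The median was -0.14, and 10 of 14 were negative, against -0.0002 and 50.2% over all genes. CPS1 had levels of 7.72, 8.78 and 9.54 with high ACAA2, against 8.10, 9.48 and 9.97 with low ACAA2. Apart from fetus 312 with 8.10, no liver below 8.0 had a CPS1 level under 9.21, and apart from fetus 274 with 9.54, no liver with high ACAA2 exceeded 9.05. IVD had levels of 7.42, 7.58 and 7.94 against 7.49, 7.92 and 8.26. GLS2, the liver glutaminase, differed by -0.48 (adjusted p 0.189), OTC, the next urea cycle enzyme, by -0.25 (0.252), MCCC2, of leucine breakdown, by -0.22 (0.232), and DBT, of branched-chain keto acid oxidation, by -0.17 (0.295). GLUL, the glutamine synthetase, stood on the other side with 0.54 (0.162), all from limma. With the mean standardized level of the stellate and mesenchymal markers as a covariate, the median of the 14 was -0.06 and 8 were negative. Over all genes the median in that fit was 0.02, and 57.5% were positive. Of the 14, 4 were then lower and 1 higher with an unadjusted p under 0.05 in limma.

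The ribosomal protein genes that passed the filter had small positive differences. All 39 of the 39 genes that passed, of 79 listed, had a positive difference, with a median of 0.13 and a range of 0.03 to 0.26, and 30 of them had an unadjusted p under 0.05, against 7.16% over all genes. None was called at 0.05 (0.118% over all genes), and 4 were at 0.1 (0.444%). RPL35, the largest, had levels of 8.26, 8.38 and 8.71 with high ACAA2, against 7.84, 8.16 and 8.37 with low ACAA2 (difference 0.26, adjusted p 0.0784 in limma), and 6 of 11 livers lay above the whole other side. RPL3 had 7.27, 7.39 and 7.72 against 6.98, 7.16 and 7.35, with 8 of 11 livers above. These genes vary together over the livers and have near-identical copies in the genome, so their count is not a count of independent results. With all probe sets averaged, 38 of the 39 were positive, and with the first principal component as a covariate 19 had an unadjusted p under 0.05.

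Translation factors had 22 of 25 positive differences, a median of 0.10 and 9 with a positive difference and an unadjusted p under 0.05, against 49.8% positive and 7.16% with such a p over all genes. EEF1D, a subunit of elongation factor 1, differed by 0.19, and the initiation helicase EIF4A1 by 0.18, whereas EIF5B, which joins the ribosomal subunits, had the largest difference with -0.23 (adjusted p 0.409 in limma). Mitochondrial ribosomal proteins had 15 of 20 positive and a median of 0.05, and the proteasome had 16 of 24 and a median of 0.03. None of these genes was called, against 0.118% over all genes.

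The list of long transcripts of scaffold, golgin and cohesin genes lay on the opposite side. All 15 that passed, of 30 listed, had a negative difference, with a median of -0.18, and 4 had an unadjusted p under 0.05, against 50.2% negative and 5.68% with such a p over all genes. NIPBL, the cohesin loader, differed by -0.28 (adjusted p 0.259 in limma) and GOLGB1, the golgin giantin, by -0.28 (0.356). ASH1L and BPTF, which act on chromatin, each differed by -0.19. With the first principal component as a covariate the median was -0.09 and 14 of 15 were negative. The cell cycle list had 23 of 31 negative with a median of -0.05, and 1 member with an unadjusted p under 0.05 in each direction. CENPF, a kinetochore protein, had the largest difference in it with -0.36 (adjusted p 0.388).

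**Figure D4:**
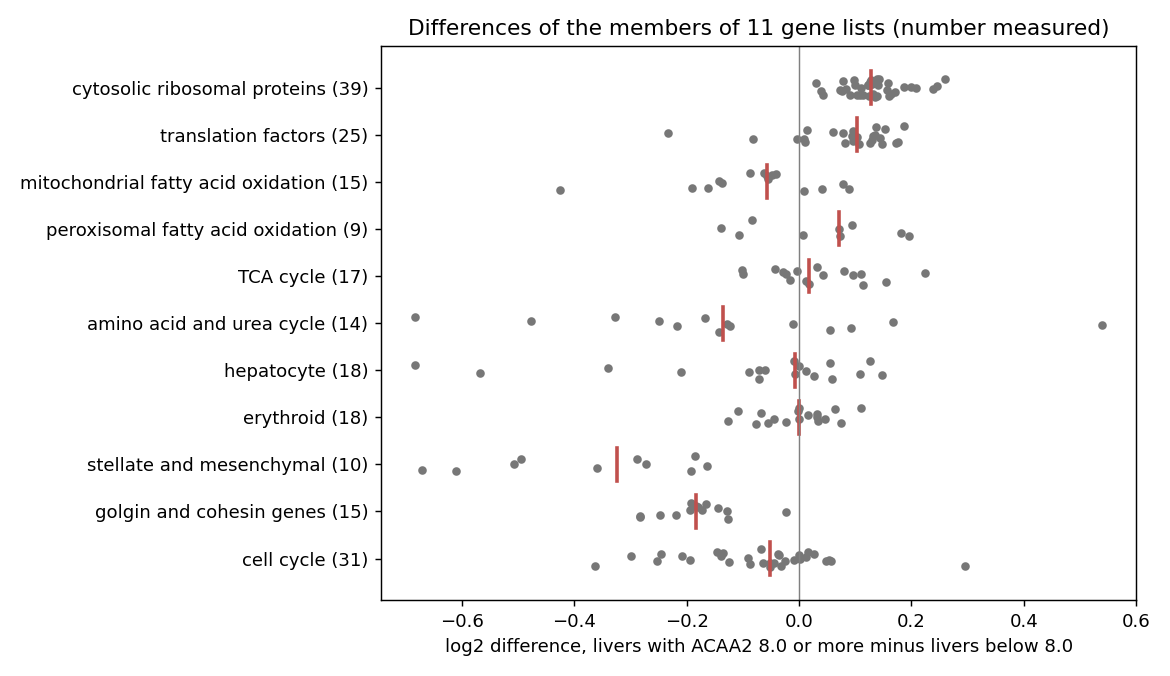
Difference in log2 level between livers with ACAA2 at 8.0 or more and livers below 8.0 (horizontal axis) for each measured member (points) of 11 gene lists, with the list median as a red bar and the number of members in brackets. The ribosomal list lies wholly right of 0 with a median of 0.13, and the stellate and mesenchymal list and the golgin and cohesin list wholly left of it with medians of -0.32 and -0.18.

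Markers of other cell types were examined in the same fit, and those of stellate and mesenchymal cells differed most. All 10 that passed, of 20 listed, had a negative difference, with a median of -0.32. An unadjusted p under 0.05 in limma was found for 7 of them (5.68% over all genes), while none was called (0.118%). Their mean level had a lowest value of 6.90, a median of 7.27 and a highest value of 7.76 in livers with high ACAA2, against 7.23, 7.69 and 8.36 in livers below 8.0, so the sides overlapped. DCN, the matrix proteoglycan decorin, had levels of 5.07, 6.04 and 7.16 against 5.94, 6.89 and 7.91, a difference of -0.67 (adjusted p 0.189 in limma). The collagen genes COL1A1, COL1A2 and COL3A1 differed by -0.61, -0.51 and -0.50 (adjusted p 0.316, 0.232 and 0.140). With these markers as a covariate, no gene was called with limma, C8B included, and 432 genes had an unadjusted p under 0.05. The part of these cells in the other differences was not tested.

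Hepatocyte markers were divided. CPS1, also in this list, had the largest difference, -0.68 (adjusted p 0.0959 in limma), and was its only member called at 0.1 (0.444% over all genes). With an unadjusted p under 0.05 in limma, 2 members were higher (7.16% over all genes) and 3 lower (5.68%). Of 18 that passed, 11 were negative, the median was -0.01, and their mean level had a lowest value of 11.52, a median of 11.56 and a highest value of 11.68 with high ACAA2, against 11.54, 11.66 and 11.79 with low ACAA2. Albumin, ALB, differed by -0.57 (adjusted p 0.103 in limma) and APOH, the plasma β2-glycoprotein, by -0.34 (0.112), while APOA1 and RBP4, the carriers of cholesterol and retinol, differed by 0.15 and 0.13 and SERPINA1 and AFP by less than 0.05. The list of acute phase and interferon genes, to which LBP did not belong, had 5 of 12 positive. It had no call, against 0.118% over all genes. Haptoglobin, HP, differed by -0.21 (adjusted p 0.589) and IFI6, an interferon-stimulated gene, by 0.93 (0.259), with 6 of 11 livers above the whole other side.

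The blood cell markers differed less. The 18 erythroid markers had 9 positive and 9 negative differences with a median of 0.00, and their mean level was 9.21, 9.32 and 9.68 with high ACAA2, against 8.98, 9.40 and 9.66 with low ACAA2. The 4 granulocyte markers that passed were all negative with a median of -0.13, and their mean level was 7.05, 7.49 and 10.4 against 6.98, 7.68 and 10.4. With the mean standardized level of these 4 markers as a covariate 29 genes were called. MPO, the myeloperoxidase of granulocytes, differed by -0.26 (adjusted p 0.739 in limma). The 6 macrophage markers had a median of 0.06, with AIF1, a marker of activated macrophages, at 0.26 (adjusted p 0.189), and the 10 endothelial markers a median of 0.00, with PLVAP, a protein of fenestrated endothelium, at -0.22 (0.189).

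The other lists of lipid and energy metabolism had medians between -0.10 and 0.07, against -0.0002 over all genes. No member was called at 0.05 (0.118% over all genes). Peroxisomal fatty acid oxidation had 6 of 9 positive and a median of 0.07, with ACOX2, the oxidase of branched substrates and bile acid intermediates, at 0.20 (adjusted p 0.207 in limma). Fatty acid uptake and activation had 7 of 11 negative and a median of -0.10, with PLIN2 called at 0.1 and ACSL1, the main long-chain acyl-CoA synthetase of liver, at -0.23 (0.162). The citric acid cycle had 10 of 17 positive and a median of 0.02, and its member called at 0.1 was MDH1. The respiratory chain and ATP synthase had 15 of 24 positive and a median of 0.00, with NDUFS4, a complex I subunit, at 0.16 (0.316). Cholesterol synthesis had 6 of 12 positive, with the sterol reductase HSD17B7 at 0.21 (0.197), and glycolysis 8 of 10, with a median of 0.04. SLC2A1 had the largest difference in the glycolysis list, 0.33 (0.491). Lipid synthesis and storage had 6 of 10 positive, with ELOVL5 at 0.33 (0.255). Gluconeogenesis and glycogen had 6 of 11 positive and a median of 0.01, with G6PC at 0.54 (0.434). In that list 3 members had an unadjusted p under 0.05 in limma, all lower (5.68% over all genes). Over all lists 454 distinct genes were tested and none was called at 0.05 (0.118% over all genes). An unadjusted p under 0.05 in limma was found for 105 of them, against 434 of the 3378 genes (12.8%).

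The largest absolute difference belonged to IGFBP1, a liver protein that binds insulin-like growth factors. Its level had a lowest value of 10.6, a median of 11.4 and a highest value of 12.1 in livers with high ACAA2, against 7.69, 10.2 and 12.1 in livers below 8.0, a difference of 1.19 (SE 0.319, 95% confidence interval 0.53 to 1.84) with an adjusted p of 0.112 in limma. Fetus 312, with 12.06, was the highest of its side and the next was 10.95. IGFBP2, a further binding protein, differed by 0.69 (adjusted p 0.122) and INSR, the insulin receptor, by 0.18 (0.140). IGF2, the main fetal growth factor of the family, differed by -0.03. Of the 11 genes that passed in the list of growth factors and imprinted growth genes, 4 were positive and the median was -0.02. With an unadjusted p under 0.05 in limma, 3 of them were higher (7.16% over all genes) and 1 lower (5.68%).

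When the level of ACAA2 itself replaced the side in the model, 26 genes (0.77%) were called with limma at an adjusted p under 0.05, 13 (0.385%) with a positive and 13 (0.385%) with a negative slope. They included the 4 genes called between the sides and 10 of the 15 called at 0.1. The sides were cut from this same level in the same livers, so these shared calls were in part built in. Those with a negative slope included, beside CPS1, IVD and BDH1, DHTKD1 of lysine breakdown, with a slope of -0.31 per log2 unit of ACAA2 (adjusted p 0.0330), TDH, the threonine dehydrogenase, with -0.53 (0.0353), and ALDH4A1 of proline breakdown, with -0.34 (0.0482). ACADM, with -0.40 (0.0388), was the only member of the β-oxidation list, and RARB, a retinoic acid receptor, had -0.30 (0.0353). With a positive slope, AKR1C1, an aldo-keto reductase, had 0.75 (0.0124), NPR3 0.52 (0.0124), IGFBP2 0.65 (0.0388), TXNIP, an inhibitor of thioredoxin, 0.41 (0.0388), CDH16, a cadherin of epithelia, 0.24 (0.0388), and QARS, the glutaminyl-tRNA synthetase, 0.20 (0.0374). RPL3, RPL7A and RPL35 were also among them.

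Within the sides the ACAA2 level had no called gene. In a limma fit with the side in the model and ACAA2 centred within each side, 0 of 3378 genes had an adjusted p under 0.05, and 110 (3.26%) had an unadjusted p under 0.05, 1.57% with a positive and 1.69% with a negative slope. AKR1C1 had the lowest unadjusted p, 0.000840, with a slope of 1.20, and CPS1 had a slope of -0.95 with 0.00239, both with an adjusted p near 1. The within-side slope of C8B was -0.18 (SE 0.338, unadjusted p 0.595) and that of C8A -0.05 (SE 0.227, 0.835). That of CDH1 was -0.14 (SE 0.211, 0.516) and that of LBP -0.67 (SE 0.417, 0.120). ACAA2 had a narrow range inside each side and the SEs were large, so this fit cannot show that a gene does not follow ACAA2 there.

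The genes whose levels were most like that of ACAA2 over the 24 livers are given by their Pearson r, as a description. The most positive were CHMP5 with 0.781, RPL7A with 0.731, NPR3 with 0.720, AKR1C1 with 0.717 and QARS with 0.705. CHMP5 had levels of 6.79, 6.92 and 7.03 in livers with high ACAA2, against 6.43, 6.73 and 6.89 in livers below 8.0, so that its whole range over the 24 livers was narrow. AKR1C1 had levels of 6.46, 7.47 and 8.09 against 5.76, 6.67 and 7.46, and its lowest livers among those with high ACAA2 were fetuses 274 and 311, which lie near the limit. The most negative were CPS1 with -0.751, C8B with -0.724, LBP with -0.720, IVD with -0.717 and BDH1 with -0.689. Without the 2 livers farthest from the median ACAA2 level, r was 0.769 for CHMP5, -0.738 for CPS1 and -0.727 for C8B. The points share the normalization of the arrays, and siblings are among them.

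**Figure D5:**
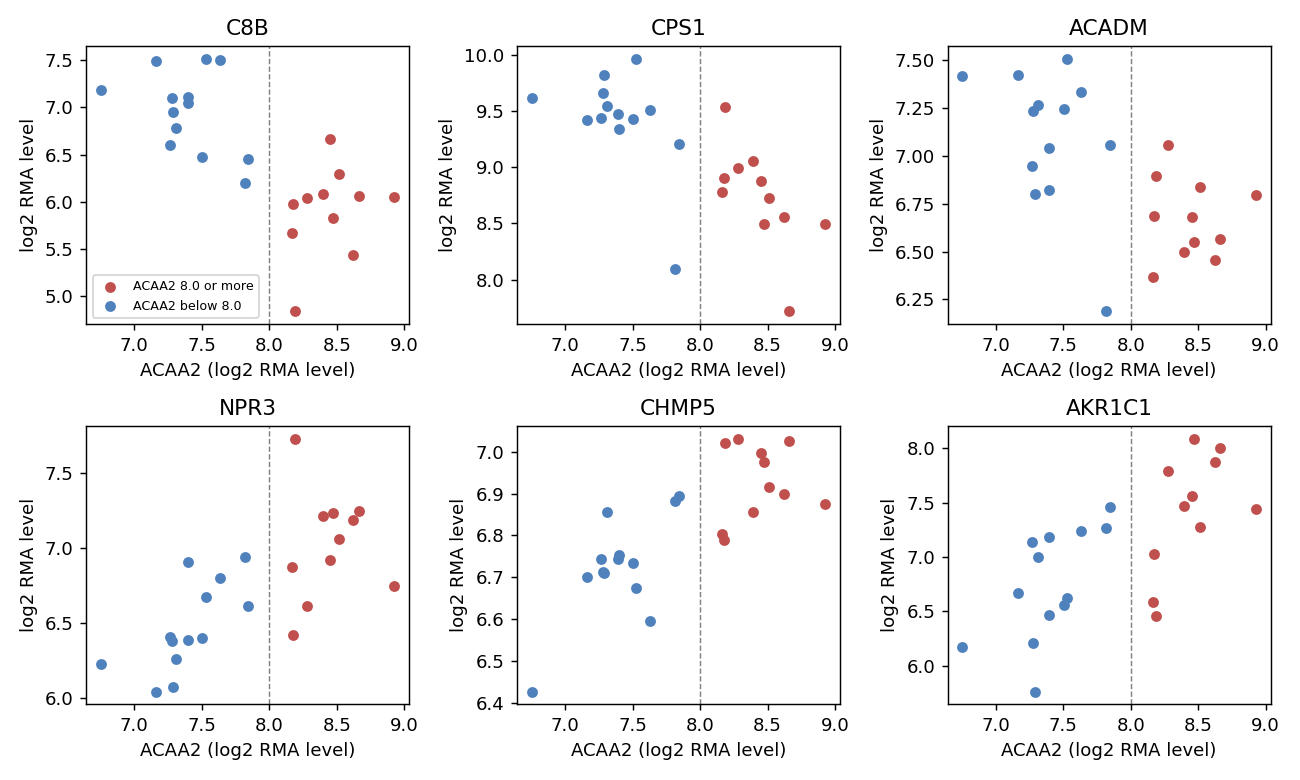
Log2 RMA level of 6 genes (vertical axes) against the log2 level of ACAA2 (horizontal axes) in 24 livers, with 11 livers at 8.0 or more in red, 13 below 8.0 in blue and the limit as a dashed line. C8B, CPS1 and ACADM lie lower at high ACAA2, with r of -0.724, -0.751 and -0.650, and NPR3, CHMP5 and AKR1C1 higher, with r of 0.720, 0.781 and 0.717.

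The genes next to ACAA2 on the chromosome were examined by their order in the RefSeq annotation of Sscrofa11.1. Among the 10 annotated genes on either side, 12 had a named probe set and 2 passed the filter. SMAD2, a transducer of TGF-β signals, had levels of 6.09, 6.33 and 6.61 in livers with high ACAA2, against 5.99, 6.35 and 6.57 in livers below 8.0 (difference 0.01, adjusted p 0.964 in limma), and CXXC1, which binds unmethylated CpG sites, had 5.86, 6.22 and 6.31 against 5.98, 6.19 and 6.36 (difference -0.01, adjusted p 0.964). The sides overlapped almost wholly for both. The nearest neighbours on the array were below the filter. LIPG, the endothelial lipase, had medians of 3.95 with high ACAA2 and 4.0 with low ACAA2, MYO5B, a motor protein of vesicle transport, 4.44 and 4.36, and DYM, a Golgi-associated protein, 5.62 and 5.60.

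The probe sets without a gene name and those for miRNAs were tested in a fit over all probe sets that passed, an analysis added after the data were seen. It called 10 of them with limma at an adjusted p under 0.05, among them both probe sets of C8A, a pair for LBP, and those of C8B and CDH1. The others were a further MDH1 probe set with a difference of 0.30 (adjusted p 0.0147) and 1 unnamed probe set with -0.98 (0.0247). Also called were a probe set of SRPX, a secreted sushi-domain protein, with 0.58 (0.0147), and 1 of ST6GAL1, the sialyltransferase of plasma glycoproteins, with -0.51 (0.0149). The main fit used another probe set of SRPX and of ST6GAL1, and neither gene was among the 15 called there at 0.1. None of the 96 miRNA probe sets that passed was called, against 10 of all 5867 probe sets tested.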

How the data were processed

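Liver RNA of 24 fetuses was hybridized to 1 array each. Per the labels and methods, the authors checked array quality in GCOS 1.1.1, ran RMA in the Expression Console, and deposited log2 values of 47845 probe sets, not centred per gene. Symbols came from the platform annotation, and the genome build of the probe design was not given. Probe signals do not compare levels between genes, and the number of arrays limits the precision. The sides came from ACAA2, not from labels, and the members and gene lists were chosen with earlier results of these data known. The mixed model of the study was not fitted, as growth group, sex and dam were not mapped.

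Differences were tested with limma 3.58.1 (lmFit, eBayes) in R 4.3.3, two-sided, with Benjamini-Hochberg adjustment over 3378 genes, and the script was tested on simulated data. Named genes were up to 10 called in each direction, all members of the β-oxidation, thiolase and PCR lists, the leading member of other lists, the ACAA2 neighbours, and the 5 most positive and 5 most negative correlations. Others were named after their values were seen. Not every leading member of a list is described here. Alternatives were filters, probe set choices, covariates, array weights and left-out arrays.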

Additional observations from a re-analysis of the deposited data

How the results depend on the processing

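The number of genes called between the sides, 4, was 26 with the continuous ACAA2 level, 9 and 2 for filter levels of 5 and 7, 2 when all arrays had to reach 6, 20 with no filter, 7 with the probe set of largest SD, 16 with aligned array medians, 11 with erythroid, 0 with stellate and mesenchymal (432 with an unadjusted p under 0.05 in limma) and 29 with granulocyte markers as a covariate, 1 with the first component as a covariate, 112 with array weights, 2 with the Wilcoxon test and 15 at 0.1. It was 35 without the 2 arrays farthest out on the first component, 8 without those of the second, 31 without the 3 arrays nearest the limit on either side, 10 over all probe sets and 3 without fetus 274, the last pair added after seeing the data. With 1 array left out it ranged from 1 to 41. The cause was not tested. At the filter level of 7, and when all arrays had to reach 6, C8B and LBP did not pass and were not tested, and the 2 called genes were C8A and CDH1. The same 4 genes were called in each setting with 4 or more, except that without the 2 arrays farthest out on the second component LBP was not. The continuous ACAA2 level is the value that chose the sides, so that setting is no separate check.

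Called list members, 0 of 454 with limma (105 with an unadjusted p under 0.05), were 9 with the continuous level, 1 with no filter or with the probe set of largest SD, 8 with aligned medians, 13 without the first-component arrays, 2 without those of the second, 8 without those nearest the limit, 6 with erythroid and 14 with granulocyte markers, 36 with array weights and 8 at 0.1.

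C8B and LBP levels of livers with high ACAA2 reach down to or below the brightest background controls, which limits the precision of their folds. The same limit holds for other genes, among them DCN, NPR3, CHMP5, AKR1C1 and ACADM, whose levels reach down to or below those controls on both sides. Among the named genes, signs turned only for genes that were not called. With the continuous level the slopes were -0.00297 for ACAD9, -0.0697 for OXCT1 and -0.000911 for SLC25A20. Averaged probe sets gave -0.0333 for AIF1 and FH, 0.170 for HADH and -0.0997 for SMAD2, the probe set of largest SD gave 0.00448 for ACSL4, and aligned medians gave 0.00238 for CXXC1. Without the first-component arrays OXCT1 was -0.0280. Without the second-component arrays CD4 was 0.00697, CXXC1 0.00695, ECHS1 0.00841, OXCT1 -0.0336 and SMAD2 -0.00196. Without those nearest the limit ACADVL was -0.0150, ACSL4 0.0193 and OXCT1 -0.0777, and without fetus 274 SMAD2 was -0.00270. With stellate and mesenchymal markers as a covariate, ACAT1 was 0.00641, CD4 0.0253, CLDN4 0.00220, CXXC1 0.00224, DCN, itself a marker in the covariate, 0.142, ECHS1 0.0531, HADHA 0.0292, HAMP 0.0764 and OXCT1 -0.0451. With granulocyte markers SMAD2 was -0.00301, and with the first component ACAA1 was -0.0188, GCLM 0.00295 and SLC25A20 -0.0338. Array weights gave 0.00113 for ACAT1 and -0.0451 for OXCT1. In the Wilcoxon alternative the difference of medians was -0.00663 for ACADVL, 0.0315 for CXXC1, 0.00158 for GCLM, -0.0550 for OXCT1 and -0.0174 for SMAD2. With 1 array left out, the difference ranged from -0.0553 to 0.0175 for ACAT1, -0.0862 to 0.0363 for CD4, -0.0260 to 0.0224 for CXXC1, -0.0397 to 0.0451 for OXCT1, -0.0184 to 0.0361 for SLC25A20 and -0.0190 to 0.0364 for SMAD2.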
